A study of Mus musculus with 4 samples.

Results

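Messenger RNA of 8 liver enzymes that spend S-adenosylmethionine (SAM) was examined. The genes are Gnmt, Pemt, Gamt, Nnmt, Inmt, Tpmt, Hnmt and As3mt. They were chosen by name as small-molecule methyltransferases of the liver, and all 8 were found among the 13903 genes of the table. All 8 also passed a filter for low genes (an average over the 4 libraries of 10 CPM or more), which left 8963 genes for comparison. A CPM is 1 read in each 1000000 reads of a library.

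The data are bulk mRNA-seq of liver of OGT-Floxed mice (strain C57BL/6J). All mice were given the CDE diet, which lacks choline and contains ethionine, so there was no group that never had this diet. Mice labelled OGT-KO carried the virus AAV8-TBG-CRE and mice labelled Control carried AAV8-TBG-eGFP. The TBG promoter drives expression in hepatocytes, so other liver cells keep an intact Ogt. Mice had either no recovery from the diet or a recovery of 7 days. Age, sex and the length of the diet are not given in the sources used here. RNA of 3 mice was pooled into a single library for each of the 4 conditions. No value therefore has a replicate error, no test between conditions was possible, and a difference between labels cannot be told apart from a difference between pools.

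SAM is the methyl donor of the cell. It is made from methionine by methionine adenosyltransferase, and each methyl transfer leaves S-adenosylhomocysteine (SAH), which inhibits most methyltransferases until it is hydrolysed. The liver makes and spends much of the body's SAM. The CDE diet bears on this pathway directly: choline is the source of betaine, a methyl donor for remaking methionine, and ethionine is an ethyl analogue of methionine that is converted to S-adenosylethionine. GNMT methylates glycine to sarcosine and disposes of surplus SAM. PEMT makes phosphatidylcholine from phosphatidylethanolamine, the route that remains when dietary choline is short. GAMT makes creatine from guanidinoacetate. NNMT methylates nicotinamide, INMT methylates tryptamine and related amines, HNMT inactivates histamine, TPMT methylates thiopurine drugs and AS3MT methylates inorganic arsenic.

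The libraries held 19972699 to 22866431 reads on the listed genes, and the members had 296 to 33233 reads in a library. Ogt itself had 64.7 CPM in the control library and 55.3 CPM in the no-recovery library labelled OGT-KO. After 7 days it had 55.7 CPM in control and 77.7 CPM in the library labelled OGT-KO, which goes against the label at the deposited scaling. That difference, 0.47 on the log2 scale, was next to the 0.48 of the median gene. Oga, which removes the sugar that OGT adds to proteins, had 57.7 and 70.2 CPM in control against 46.5 and 57.0 CPM. Because of Ogt, directions are given between libraries as they are labelled. The 100 most abundant genes took 42.8% to 45.0% of reads in control and 34.1% to 34.3% in the libraries labelled OGT-KO, and the median gene differed by 0.51 (log2, OGT-KO label minus control) with no recovery and by 0.48 after 7 days. Cell markers differed as well. Of 11 hepatocyte markers, 7 were at least 2-fold lower with no recovery and 6 after 7 days, with medians of -1.60 and -1.63, while Alb, the most abundant, was at -0.21 and -0.08. The markers summed to 87215 and 95762 CPM in the control libraries against 56035 and 67288 CPM under the OGT-KO label, for no recovery and 7 days. All 5 bile duct and progenitor markers and all 7 stellate cell markers were at least 2-fold higher at both times. Of all compared genes 19.2% were. The bile duct and progenitor markers summed to 53.7 and 69.6 CPM in control against 1148 and 1457 CPM. The stellate cell markers summed to 137.5 and 101.6 CPM in control against 2460.3 and 3148 CPM. Krt7, Krt19, Epcam, Acta2 and Des were below 10 CPM in both control libraries. They passed the filter only through the OGT-KO label, so their direction was fixed by it. The 5 macrophage markers summed to 157.0 and 60.3 CPM in control against 498 and 370.0 CPM, and the 5 endothelial markers to 210.6 and 143.2 CPM against 403 and 297.0 CPM. The endothelial median was 0.63 and 0.64, and 1 of the 5 was at least 2-fold higher at both times. The 5 leukocyte markers measured summed to 8.80 and 4.06 CPM in control against 44.3 and 45.0 CPM. Of these 1 passed the filter, Ptprc, which was below 10 CPM in both control libraries. Ptprc held 33.8 and 31.7 CPM of the sums under the OGT-KO label. No marker measured was at 0 in every library. In bulk liver, fewer hepatocytes and less of an RNA per hepatocyte cannot be told apart, and the part of these shifts in the results below was not tested.

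Most members were below control under the OGT-KO label. With no recovery all 8 lay below control, and Inmt, Nnmt, Gamt and Gnmt passed the threshold of a 2-fold difference. After 7 days 7 of the 8 lay below control, and Inmt, Nnmt and Gnmt passed it. The median difference of the members was -1.13 with no recovery and -0.76 after 7 days, on the scale of log2(CPM + 1) used for all differences, which slightly understates the change of low genes. The median over all compared genes was 0.51 and 0.48. Among all compared genes 5.69% were at least 2-fold lower with no recovery and 4.27% after 7 days, against 4 and 3 of the 8 members. The 3 members lower at both times compare with 3.74% of all genes. No member was at least 2-fold higher at either time, while 24.4% of all genes were with no recovery and 22.9% after 7 days. The split over all genes depends on the scaling. At the deposited scaling 2185 genes were higher and 510 lower with no recovery, and 2050 and 383 after 7 days. Upper-quartile scaling gave 1208 and 981, and 1215 and 740. Median-ratio scaling gave 935 and 1381, and 1038 and 1055, and called 7 members lower with no recovery and 5 after 7 days.

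**Figure D1:**
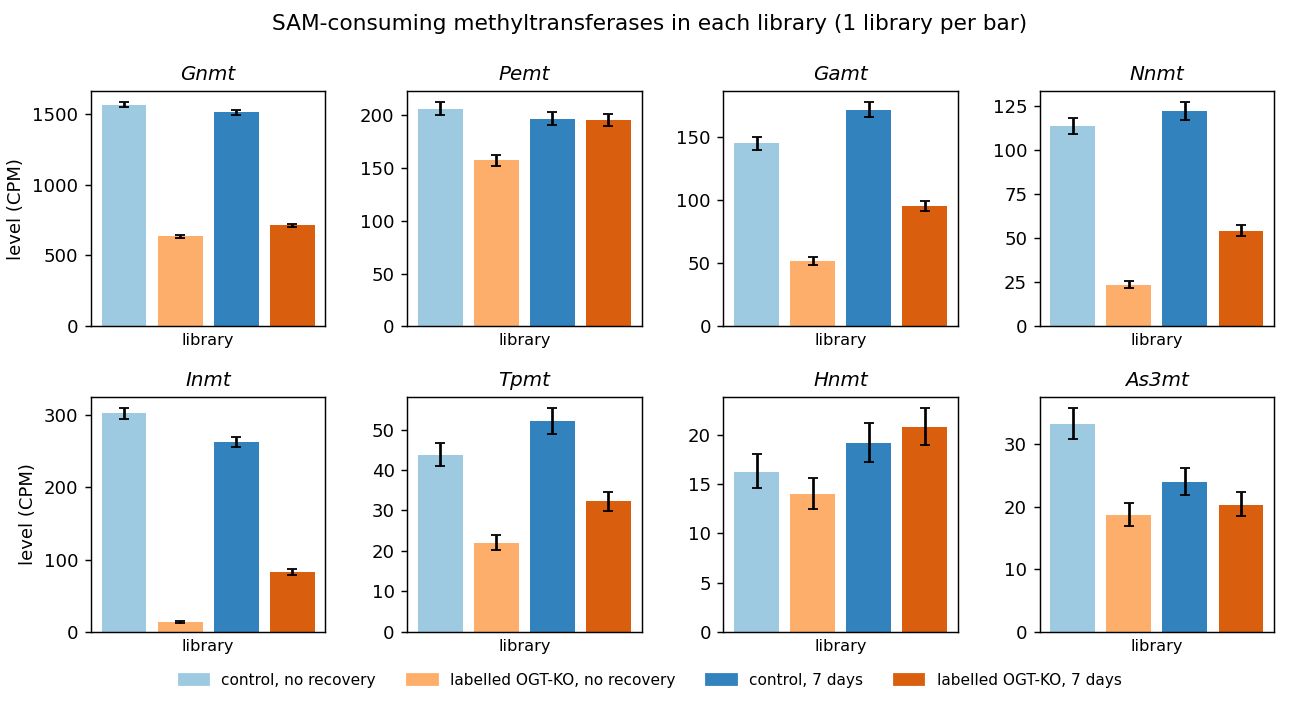
Level in CPM (vertical axis, from 0, a scale of its own in each panel) of each methyltransferase gene in the 4 libraries; a bar is 1 library of pooled RNA and its line the exact Poisson 95% interval, which covers counting error only. Inmt is the extreme case, with 12.9 CPM in the no-recovery library labelled OGT-KO against 303 CPM in control.

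**Figure D2:**
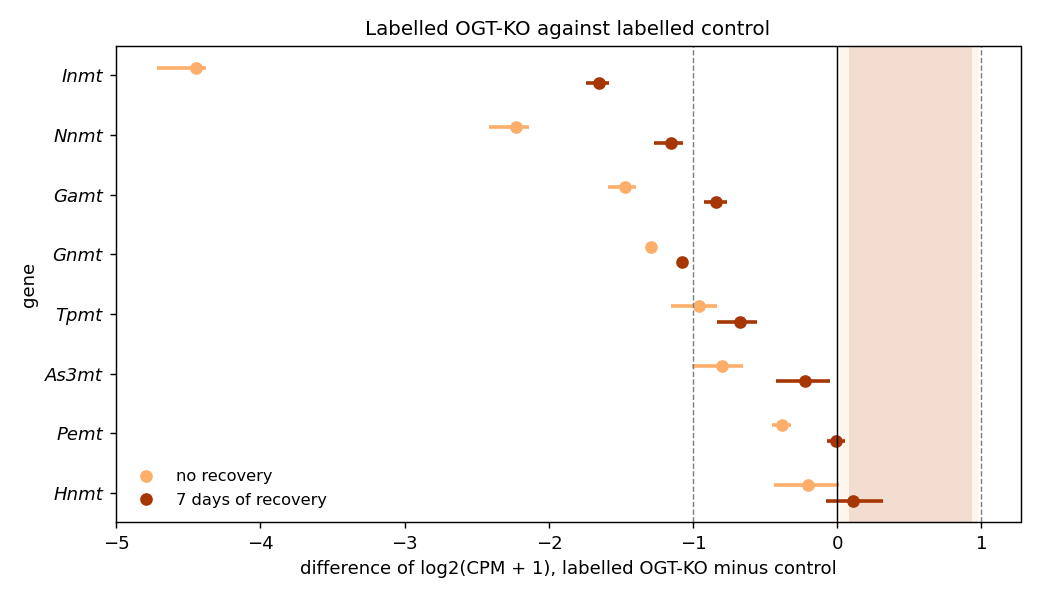
Difference of log2(CPM + 1) between the library labelled OGT-KO and the control library (horizontal axis) for each gene at both times; points are the differences, lines the exact 95% counting interval of the log2 read ratio, shaded bands the middle 50% of all compared genes and dashed lines the 2-fold threshold. All members lie to the left of the median gene, for which the difference was 0.51 with no recovery and 0.48 after 7 days.

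The amine and nicotinamide methyltransferases stood furthest from control. Inmt (ENSMUSG00000003477) lies on chromosome 6, minus strand, 55170626 to 55175043 in GRCm38, the build of all gene positions given here. Like the other members it is annotated as protein coding. It had 303 CPM in control and 12.9 CPM in the no-recovery library labelled OGT-KO, and 263 CPM and 83.0 CPM after 7 days. The level in the libraries labelled OGT-KO was thus 4.28% of control with no recovery and 31.6% after 7 days. The difference was -4.44 with no recovery (95% counting interval of the log2 read ratio -4.72 to -4.38) and -1.65 after 7 days (-1.74 to -1.59). Counted from the lowest difference, Inmt ranked 28 of the 8963 compared genes with no recovery and 140 after 7 days.

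Nnmt (ENSMUSG00000032271; chromosome 9, minus strand, 48591877 to 48605153) had 114 CPM in control and 23.5 CPM in the no-recovery library labelled OGT-KO, and 122 CPM and 54.3 CPM after 7 days. These gave differences of -2.23 (-2.41 to -2.14) and -1.15 (-1.27 to -1.07). Both control libraries lay above both libraries labelled OGT-KO for Inmt and for Nnmt, as for every other member except Hnmt. In both genes the no-recovery library labelled OGT-KO was the lowest of the 4, as it was for every member. Both genes also lay below the median hepatocyte marker of -1.60 with no recovery. After 7 days Inmt, at -1.65, was next to the marker median of -1.63, and Nnmt was above it.

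Gnmt (ENSMUSG00000002769; chromosome 17, minus strand, 46725664 to 46729168), which disposes of surplus SAM, was the most abundant member per length of transcript. It had 1563 CPM in control and 637 CPM in the no-recovery library labelled OGT-KO, and 1509 CPM and 714 CPM after 7 days. The differences were -1.29 (-1.32 to -1.27) and -1.08 (-1.11 to -1.05), so the fall was of similar size at both times. Both values lay above the median hepatocyte marker.

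Gamt (ENSMUSG00000020150; chromosome 10, minus strand, 80258151 to 80261012), the last enzyme of creatine synthesis, had 145 CPM in control and 51.5 CPM in the no-recovery library labelled OGT-KO. After 7 days it had 171 CPM and 95.3 CPM. The difference of -1.48 (-1.59 to -1.40) passed the threshold with no recovery, and that of -0.84 (-0.92 to -0.77) after 7 days did not. With upper-quartile scaling, which removes most of the shift of the median gene, the value after 7 days was -1.32.

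The 250 bases before the RefSeq transcription start are shown for the members that were at least 2-fold lower with no recovery and had an entry in the RefSeq promoter table (GRCm38.p6), which held 7 of the 8 members. Nnmt had no entry. Capitals mark 3 motifs, searched on both strands: the TATA box found near many start sites, which was searched as TATAA, a second box spelled CCAAT that is bound by the factor NF-Y, and the GC box, spelled GGGCGG, that is bound by the Sp family. The first of these can match on both strands at overlapping places, as it does here in Inmt and Gnmt.
Inmt, chr6:55174991-55175240, minus strand: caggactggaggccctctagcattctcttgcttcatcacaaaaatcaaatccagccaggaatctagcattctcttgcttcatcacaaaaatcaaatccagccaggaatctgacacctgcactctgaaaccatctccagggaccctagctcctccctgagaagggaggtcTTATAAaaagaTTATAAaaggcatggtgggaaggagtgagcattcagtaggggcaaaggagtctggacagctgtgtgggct
Gnmt, chr17:46729166-46729415, minus strand: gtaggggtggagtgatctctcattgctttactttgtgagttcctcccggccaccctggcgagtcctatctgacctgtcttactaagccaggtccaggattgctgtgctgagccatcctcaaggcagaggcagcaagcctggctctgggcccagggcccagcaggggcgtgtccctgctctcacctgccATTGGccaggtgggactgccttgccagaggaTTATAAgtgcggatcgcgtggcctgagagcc
Gamt, chr10:80261013-80261262, minus strand: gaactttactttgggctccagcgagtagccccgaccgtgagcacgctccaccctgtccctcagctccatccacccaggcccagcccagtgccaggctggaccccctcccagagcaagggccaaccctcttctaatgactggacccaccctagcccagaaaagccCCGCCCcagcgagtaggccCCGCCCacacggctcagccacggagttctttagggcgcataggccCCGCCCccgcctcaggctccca

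No motif was found in all 3 of these promoters. Inmt held the TATA box letters at 2 places, beginning 80 and 69 bases before the RefSeq start. In GENCODE the gene starts at 55175043, inside this window, so both places lie closer to that start. Gnmt held them at 1 place, 30 bases before the start, with a CCAAT box on the opposite strand 62 bases before it. Gamt held neither and had the GC box at 3 places. Of all 32851 promoters in the table, 22.8% held the TATA box letters on either strand within the same 250 bases, 33.8% the CCAAT box and 32.7% the GC box. Members below the threshold held such letters too: Pemt had a TATA box 33 bases before the more upstream of its RefSeq starts, and Tpmt had the GC box at 5 places. The Inmt promoter also contained the same 49 bases at 2 overlapping places, beginning 235 and 189 bases before the start. A repeat of at least this length was present in 105 of the 32851 promoters. The GC content of the window was 48.0% for Inmt, 60.4% for Gnmt and 66.8% for Gamt, and the median of all promoters was 52.4%. These matches are a description of the sequence and do not show that a factor binds there.

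Pemt (ENSMUSG00000000301; chromosome 11, minus strand, 59970614 to 60046489), the phosphatidylcholine enzyme, was close to control. It had 206 CPM in control and 157 CPM in the no-recovery library labelled OGT-KO, and 197 CPM and 196 CPM after 7 days. Its differences were -0.38 (-0.45 to -0.32) and -0.01 (-0.07 to 0.05). Relative to the median gene they were -0.89 and -0.49. With median-ratio scaling Pemt passed the threshold with no recovery, at -1.10.

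Tpmt, As3mt and Hnmt, which act on drugs, arsenic and histamine, were the least abundant members per length of transcript. Tpmt (ENSMUSG00000021376; chromosome 13, minus strand, 47022482 to 47044737) had 43.7 CPM in control and 22.0 CPM in the no-recovery library labelled OGT-KO, and 52.1 CPM and 32.2 CPM after 7 days. Its differences were -0.96 (-1.15 to -0.83) and -0.68 (-0.83 to -0.55), the first just inside the 2-fold threshold. As3mt (ENSMUSG00000003559; chromosome 19, plus strand, 46707458 to 46741099) had 33.3 CPM in control and 18.7 CPM in the no-recovery library labelled OGT-KO, and 23.9 CPM and 20.3 CPM after 7 days. Its differences were -0.80 (-1.01 to -0.65) and -0.22 (-0.42 to -0.05), and much of the narrowing lay in the control libraries. With upper-quartile scaling Tpmt passed the threshold at both times, at -1.42 and -1.15, and As3mt with no recovery, at -1.26.

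Hnmt (ENSMUSG00000026986; chromosome 2, minus strand, 24002910 to 24049394) was the member nearest to control in both comparisons apart from Pemt after 7 days. It had 16.2 CPM in control and 14.0 CPM in the no-recovery library labelled OGT-KO, and 19.1 CPM and 20.7 CPM after 7 days. The differences were -0.20 (-0.44 to 0.01) and 0.11 (-0.08 to 0.32), and both intervals included 0 at the deposited scaling. With no recovery the value was -0.65 under upper-quartile and -0.87 under median-ratio scaling, and after 7 days, where the sign turned, -0.35 and -0.54.

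Differences with recovery were larger in size under the OGT-KO label than in control for 7 of the 8 members, As3mt being the exception. Under the OGT-KO label all 8 had higher values after 7 days, with a median difference of 0.53, though the interval of As3mt (-0.07 to 0.31) included 0, and Inmt and Nnmt passed the 2-fold threshold. Inmt rose 6.41-fold, from 12.9 to 83.0 CPM, a difference of 2.59 (2.50 to 2.86), ranking 3 of the 8963 genes from the highest. Nnmt rose 2.31-fold, from 23.5 to 54.3 CPM, a difference of 1.17 (1.06 to 1.36). Gamt was higher by 0.88 (0.79 to 0.99), just inside the threshold. Among all compared genes 1.04% passed the threshold upwards and 0.435% downwards between these libraries.

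In control 4 members were higher and 4 lower after 7 days, with a median difference of 0.03, and none passed the threshold. The range was from -0.46 for As3mt to 0.25 for Tpmt. Among all compared genes 0.245% passed it upwards and 0.960% downwards. Inmt was at -0.20 in control (-0.26 to -0.15), so its change with recovery was larger by 2.79 in the libraries labelled OGT-KO, and Nnmt, at 0.10 in control (0.02 to 0.18), was larger by 1.07. With 1 library per condition these differences between the labels could not be tested. Despite the rise, both genes stayed below both control libraries after 7 days.

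**Figure D3:**
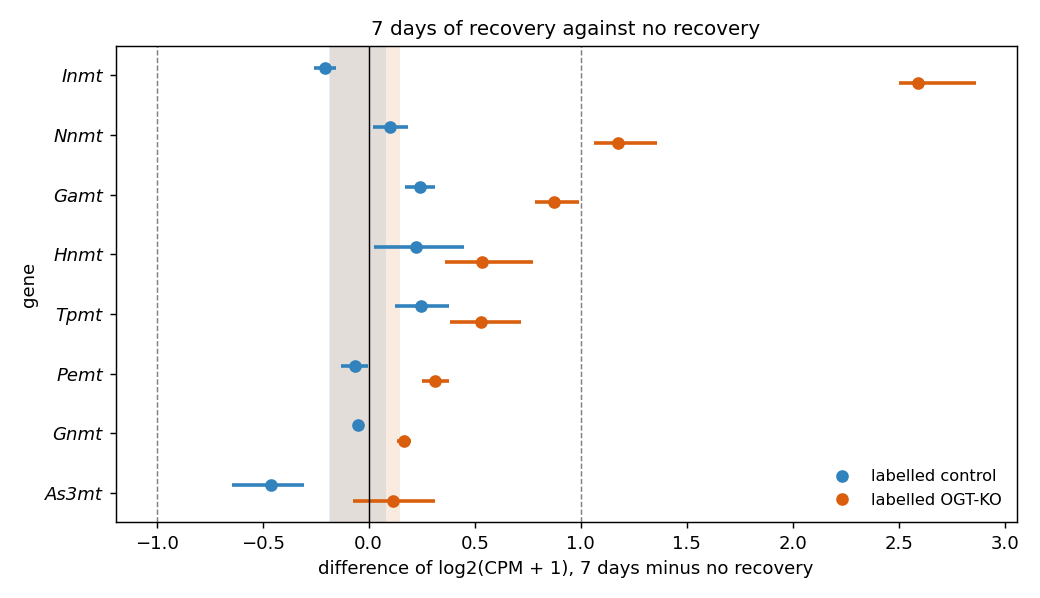
Difference of log2(CPM + 1) between 7 days of recovery and no recovery (horizontal axis) for each gene in the control libraries and in the libraries labelled OGT-KO; lines are the exact 95% counting interval of the log2 read ratio, shaded bands the middle 50% of all compared genes and dashed lines the 2-fold threshold. Inmt at 2.59 and Nnmt at 1.17 pass the threshold in the libraries labelled OGT-KO, and none of the 8 genes does in control.

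Levels of different genes were compared per length, as CPM per 1000 bases of the principal transcript in GENCODE M21. Gnmt was highest in all 4 libraries, with 1510 and 1458 CPM per 1000 bases in control and 615 and 690.2 in the libraries labelled OGT-KO, for no recovery and 7 days. In both control libraries the order was then Inmt, Pemt, Gamt and Nnmt, with 281, 205, 147 and 109 CPM per 1000 bases with no recovery. Under the OGT-KO label at that time Inmt, at 12.02, was in the fifth place, behind Pemt at 157, Gamt at 52.1 and Nnmt at 22.5. After 7 days it stood behind Gnmt, Pemt and Gamt there, at 77.0. Tpmt, As3mt and Hnmt took the last places in every library, at 8.12 to 19.2 CPM per 1000 bases, and their order changed between libraries. The most and the least abundant member differed 154-fold per length in control with no recovery and 75.7-fold in the matching library labelled OGT-KO.

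The 8 genes together held 2424 CPM in control and 937 CPM in the no-recovery library labelled OGT-KO, and 2357 CPM and 1216 CPM after 7 days. Gnmt made up 58.7% to 68.0% of these sums. Without it the sums were 860.3 and 300.1 CPM with no recovery, and 848 and 502 CPM after 7 days.

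The genes around the members were taken from 8 lists of the pathways that feed or use them, of which 95 of 108 genes were measured and 83 passed the filter. With no recovery 18 of the 83 were at least 2-fold higher in the library labelled OGT-KO and 14 at least 2-fold lower, and after 7 days 16 were higher and 8 lower. These are 21.7% and 16.9% of the 83 with no recovery, beside 24.4% and 5.69% of all genes, and 19.3% and 9.64% after 7 days, beside 22.9% and 4.27%. At both times 15 were higher and 8 lower, beside 19.2% and 3.74% of all genes. Of those 15, 7 were below 10 CPM in both control libraries, so they passed the filter only through the libraries where they were high, and their direction was fixed by it. With median-ratio scaling 3 of the 83 were higher and 18 lower at both times. Median-ratio scaling moved the median gene from 0.51 to -0.19 with no recovery and from 0.48 to -0.18 after 7 days, so positive differences smaller than this shift turn negative under it, that of Mat2a after 7 days among them. The enzymes that make SAM and remove SAH were split. Of the 14 genes of this list, 2 were higher and 3 lower at both times, and the median was 0.06 and 0.08. Mat1a, the adult liver's methionine adenosyltransferase, was at 1611 and 587 CPM with no recovery and 1848 and 567 CPM after 7 days in control and the library labelled OGT-KO (-1.46 and -1.70). Ahcy, which hydrolyses SAH, fell from 1001 to 324 CPM and from 966 to 309 CPM (-1.62 and -1.64). Cbs, which draws homocysteine into cysteine synthesis, was at -1.16 and -1.03. Mat2a, the methionine adenosyltransferase of other tissues and of the fetal liver, was at 0.75 and 0.50, inside the threshold. Mtrr, which keeps methionine synthase active, was at 1.39 and 1.41 and passed the filter only through the OGT-KO label. Unlike Inmt and Nnmt, Mat1a and Ahcy changed little with recovery in the libraries labelled OGT-KO, at -0.05 and -0.07. Not all genes of this list did so: 1 of the 14 was at least 2-fold higher with recovery there, beside 1.04% of all genes.

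Around Gnmt, the glycine and sarcosine list had 5 of 8 genes lower with no recovery and 3 lower at both times. Of all compared genes 5.69% and 3.74% were. Sardh, which demethylates the sarcosine that GNMT makes, was at -1.66 and -1.09, Pipox, which oxidises sarcosine and pipecolate, at -1.68 and -1.16, and Shmt1, which interconverts serine and glycine, at -1.74 and -1.02. Gldc, of the glycine cleavage system, passed the threshold in the other direction with no recovery, at 1.05, and was at 0.73 after 7 days.

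Around Pemt, 1 of the 9 phosphatidylcholine genes past the filter was lower at both times and none was higher. This was Chpt1, an enzyme of the last step of the choline route, at -2.18 and -1.57. Cept1, also in this list, was at 0.42 and 0.56. Chka, which phosphorylates choline, had 55.2 CPM in control against 111 CPM with no recovery, just inside the threshold, and was at 0.89 after 7 days. Pcyt2, of the phosphatidylethanolamine route, was at -1.06 and -0.83.

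Around Gamt, 3 of the 4 creatine genes measured passed the filter. All 3 were below 10 CPM in both control libraries and passed it only through the OGT-KO label, so that they were higher there was fixed by the filter, and their values are a description. Gatm, which makes the guanidinoacetate that GAMT methylates, had 8.37 and 5.46 CPM in control against 26.0 and 24.4 CPM (1.53 and 1.98). Slc6a8, the creatine transporter, was at 2.32 and 2.24 and Ckb, the brain-type creatine kinase, at 2.65 and 4.26. Their levels in control were 2.55 to 8.37 CPM.

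Around Nnmt, none of the 10 nicotinamide genes past the filter passed the threshold at both times. Nampt, which recycles nicotinamide to NAD, was at 0.79 and 1.01. Aox3, an aldehyde oxidase of the mouse liver, was at -1.95 with no recovery. After 7 days it had 673 CPM in control against 336 CPM, just inside the threshold, and like Inmt and Nnmt it rose with recovery under the OGT-KO label, by 1.01. Of the 3 histamine and amine genes past the filter, 1 was higher and 1 lower at both times. Maoa, which also passed the filter only through the OGT-KO label, was at 1.55 and 1.32 and Maob at -1.77 and -1.08, both monoamine oxidases.

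Other methyltransferases were counted in the same way. Of 10 genes past the filter in a list of other, mostly small-molecule, methyltransferases, Mettl7a1 was the gene at least 2-fold lower with no recovery, at -1.15. Comtd1 was at 1.61 and 1.30, from 5.36 and 5.01 CPM in control, and also passed the filter only through the OGT-KO label. Of 26 protein, DNA and RNA methyltransferases, 8 were higher at both times and none lower at either. Their median was 0.81 and 0.73, beside 0.51 and 0.48 for all genes, of which 19.2% were higher at both times. Of the 8, 1 was below 10 CPM in both control libraries and passed the filter only through the OGT-KO label, so its direction was fixed by the filter. With median-ratio scaling 1 of the 26 was higher at both times, and the median was 0.12 and 0.07. Dnmt1, the maintenance DNA methyltransferase, was at 2.10 and 2.21, Setd7 at 2.00 and 1.64 and Kmt5a at 1.48 and 1.51, the last 2 being lysine methyltransferases. The proliferation markers Mki67 and Top2a were at 3.30 and 3.69 with no recovery and at 4.59 and 4.71 after 7 days. Both markers were below 10 CPM in both control libraries. They passed the filter only through the OGT-KO label, so their direction was fixed by it. Their part in the level of Dnmt1 was not tested.

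**Figure D4:**
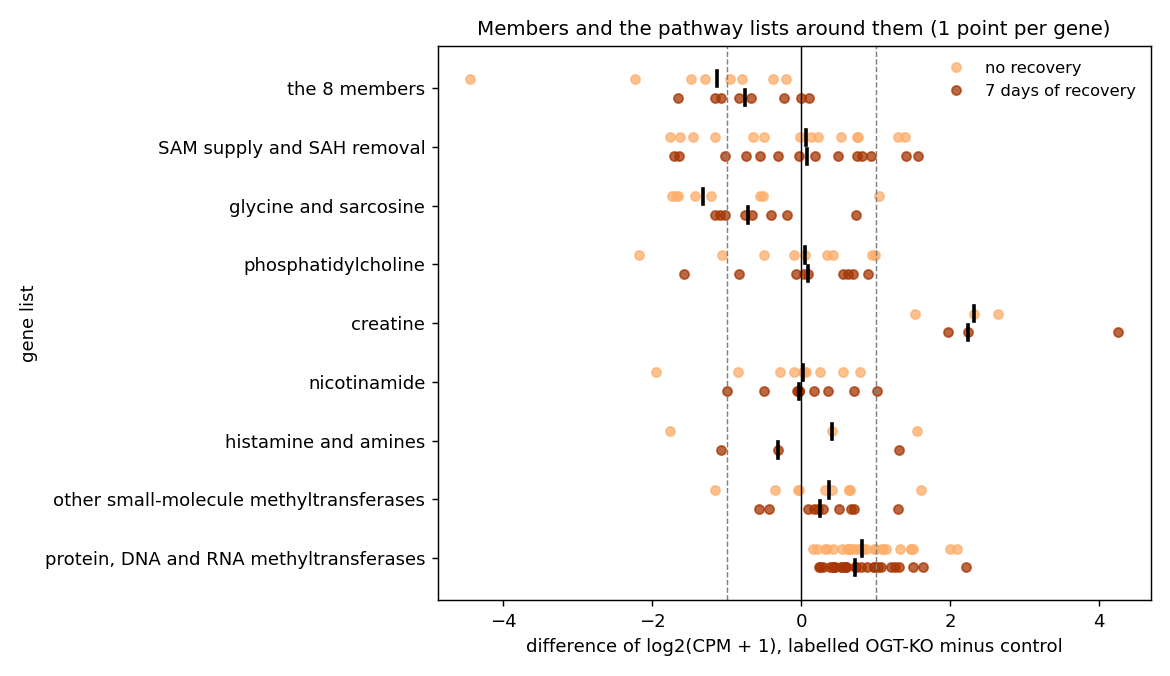
Difference of log2(CPM + 1) between the library labelled OGT-KO and the control library (horizontal axis) for the 8 members and for the genes past the filter in each pathway list (vertical axis); a point is 1 gene, a black bar the median of the list and dashed lines the 2-fold threshold. The medians of the members (-1.13 and -0.76) and of the glycine and sarcosine list (-1.32 and -0.71) lie below 0; the 3 creatine genes passed the filter only through their levels in the libraries labelled OGT-KO.

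For each member, the genes with the nearest profile over the 4 libraries were found by the Euclidean distance of centred log2(CPM + 1) values. Inmt had no close match: its nearest genes were Cyp2c29, Hsd17b7 and Rdh16f2, at distances of 0.69, 0.70 and 0.74. Genes near to Nnmt included Mdh1 (0.18) and Myorg (0.20), and Gamt was nearest to Gcsh (0.19), Cish (0.20) and Acss2 (0.21). Gnmt was nearest to Pglyrp2, Gys2 and Marc1, at 0.07 each. Pemt was nearest to Gatd3a (0.02), Tpmt to Notum (0.01), Hnmt to Tmem30b (0.04) and As3mt to Pcsk6 (0.06). With 4 libraries many genes share a profile, so these distances are a description.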

How the data were processed

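Whole-liver mRNA was measured in 4 libraries, 1 for each combination of label and time, each from the pooled RNA of 3 mice. The authors deposited CPM for 13903 genes. The submitters' processing notes name STAR, DESeq2 and GRCm39, with no role or version; the counter, annotation and filter are not given in the sources used here. Each deposited CPM column sums to 1000000, and 100.0% of its values lay within 0.1 of a whole number of reads, so whole reads were recovered (19972699 to 22866431 per library).

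The 8963 genes averaging 10 CPM or more were compared as differences of log2(CPM + 1), and a 2-fold difference was called. With 1 library per condition there was no test between conditions and no p-value. Intervals are exact Clopper-Pearson intervals of the read ratio or exact Poisson intervals of the level, at 95%, and cover counting error only. On reads, an exact binomial test (doubled smaller tail, Benjamini-Hochberg adjusted p under 0.05), which compares libraries and not conditions, called 12121 and 11929 of 13903 genes between labels with no recovery and after 7 days, and 4009 and 6478 between times, for control and for the OGT-KO label. Alternatives were other pseudocounts, scalings, thresholds and filters. The 2-fold call, the binomial test and the interval of the read ratio were tested on reads simulated for the no-recovery pair of libraries. The other steps were not tested in this way. The members, gene lists and the rule for named genes were chosen with earlier results of these data known: all members, the listed genes with the largest change at both times (up to 3 per list and direction), listed genes that share a substrate with a member, and the 3 genes nearest to each member, of which the first is given for 4 members. Mat2a, Bhmt, Gldc, Chka, Cept1, Pcyt2, Mettl7a1 and some cell markers were named after their values were seen. Some genes that the rule selects are not reported here. Gene positions and transcript lengths are from GENCODE M21 (GRCm38), which held 13893 of the gene identifiers, and promoters from RefSeq (GRCm38.p6). These differ from the build in the processing notes, and no position was compared with the table. Python 3.11.15, numpy 2.4.6, pandas 2.3.3, scipy 1.17.1 and matplotlib 3.10.9 were used.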

Additional observations from a re-analysis of the deposited data

Results flagged for a closer look

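Inmt, Pemt and Gnmt changed with recovery in opposite directions under the control label and the OGT-KO label, each beyond its counting interval. Inmt was at -0.204 in control and 2.59 under the OGT-KO label. Pemt was at -0.0651 and 0.312, and Gnmt at -0.0506 and 0.166. The difference between the labels was not tested, since each condition is 1 library. The values of Pemt and Gnmt in control lie next to the median gene, which was at -0.05, and Gnmt became positive in control with upper-quartile scaling.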

How the results depend on the processing

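No paired analysis was possible because each condition has 1 library and the labels give no replicate numbers. For the same reason no library could be left out. The number of members called between the labels moved by more than 1.5 times in some settings: with median-ratio scaling it was 7 with no recovery and 5 after 7 days, with upper-quartile scaling 5 after 7 days, at 1.5-fold 5 after 7 days, and at 4-fold 2 with no recovery and 0 after 7 days. All of these were below control. Between the times under the OGT-KO label it was 1 with a pseudocount of 10 and 1 at 4-fold. The exact binomial test on reads removed none of the members called at 2-fold. At this depth it removed no compared gene called at 2-fold, so it is no check of the members. These were 2695 and 2433 genes between the labels with no recovery and after 7 days. Between the times they were 108 genes for control and 132 for the OGT-KO label.

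The log2 ratio of the members' summed level was -1.37 with no recovery and -0.96 after 7 days between the labels. Between the times it was -0.04 for control and 0.38 for the OGT-KO label. In this order it was -1.85, -1.44, 0.0116 and 0.42 with upper-quartile scaling, -2.09, -1.64, -0.000332 and 0.45 with median-ratio scaling, which was chosen for this sum after seeing the data, and -1.52, -0.76, -0.0208 and 0.74 without Gnmt.

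Of 128 differences of single members recomputed with other pseudocounts and scalings, 46 moved by more than their counting error and 3 changed sign: Hnmt between the labels after 7 days with both scalings, and Gnmt between the times in control with upper-quartile scaling. No called difference changed sign. Of all genes, 2185 were higher and 510 lower with no recovery and 2050 and 383 after 7 days. These counts became 935, 1381, 1038 and 1055 with median-ratio scaling, 1208, 981, 1215 and 740 with upper-quartile scaling, 4595, 605, 4492 and 461 with no filter, 525, 351, 503 and 281 at a mean of 50 CPM, 1367, 414, 1344 and 305 with a pseudocount of 10, 691, 164, 788 and 87 at 4-fold, and 4077, 907, 3856 and 674 at 1.5-fold. The counts of listed pathway genes with median-ratio scaling were chosen after seeing the data. Hnmt, with 320 to 468 reads in a library, is the member that depth limits most.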
